A study of Mus musculus with 77 samples.

Results

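The genes described here code for potassium channels, voltage-gated sodium channels and hyperpolarization-activated (HCN) channels of the mouse retina. A gene was taken when its symbol begins with Kcn followed by a letter or with Scn, a number and a or b, or is one of the Hcn family, and Kcnj8 and Kcnj10 were left out. Of the 21154 genes with a probe on the array, 110 protein-coding and 3 non-coding genes met this rule, and each was measured by the brightest of its probes. The rule reads the symbol alone, and the brightest probe was set by its mean signal over all arrays.

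Potassium channels let potassium leave the cell and hold or restore the resting potential, sodium channels carry the upstroke of the action potential, and HCN channels open upon hyperpolarization and pass an inward current. In the retina, rods and cones use potassium channels with the silent subunit Kcnv2 together with HCN channels to shape their light response, and ganglion and amacrine cells fire with sodium channels such as Scn1a, Scn2a and Scn8a. Auxiliary subunits (Kcnab, Kcne and Kcnip genes, sodium beta subunits) bind these pores and alter their gating or surface number.

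In the oxygen-induced retinopathy (OIR) model, C57BL/6 pups breathed 75% oxygen from P7 to P12 and then returned to room air. Control litters stayed at 21% oxygen. Retinas were taken on P12, at the end of hyperoxia, on P17 and on P28, and the RNA of both retinas of 1 mouse was hybridized against a commercial universal mouse reference RNA on a two-color array. Each day had 13 OIR mice, with 12 control mice on P12, 12 on P17 and 14 on P28, and the litter of a mouse is not given. Whole litters were assigned to oxygen or air, and the fits treat mice as independent, so the p-values do not account for litter. All expression values below are log2 ratios of retina over reference. A loss of the cells that carry a transcript and a loss of the transcript per cell cannot be told apart in whole retina.

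The labels place the retina in Cy5, but on 77 of 77 arrays Cy3 carried the stronger signal for Sag, Gnat1 and Pde6b, which are rod genes, and Cy3 was therefore taken as the retina, opposite to the labels. The arrays lay on 11 slides read on 4 scanning days. On the 4 slides of the last scanning day, 20913 to 34306 probes passed the scanner's background test for the retina (32 arrays), compared with 13765 to 24707 on the other 45 arrays. These slides held 11 of the 13 OIR and 9 of the 14 control arrays of P28, but only 2 of the 13 OIR and 5 of the 12 control arrays of P17, so that comparisons with P28 moved with the scanning day. Slide as a block in the fit is given beside a count or gene where it changes a call. All 8 rod markers were above background on every mouse of P17, whereas no skeletal muscle marker was above background on every P17 mouse.

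**Figure D1:**
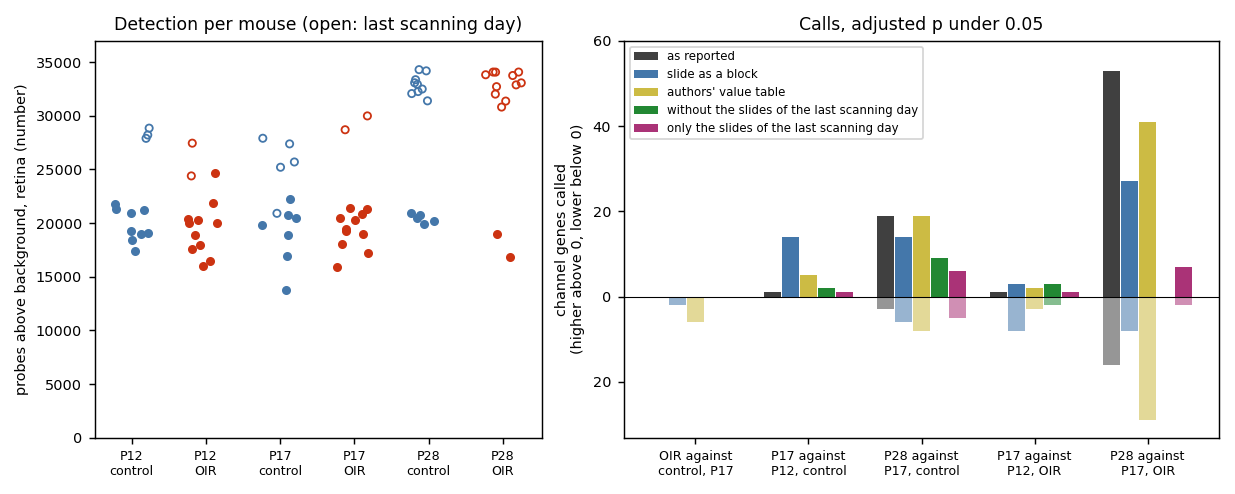
Left, probes detected above background for the retina (number, y axis) on each array of the 6 groups, control in blue and OIR in red, with open circles for arrays of the last scanning day, which reach 34306 probes. Right, number of channel genes with an adjusted p under 0.05 in 5 comparisons, higher above the zero line and lower below it, one color per processing: the count for P28 against P17 in OIR mice was 53 higher and 16 lower as reported and 27 and 8 with slide as a block.

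Of the channel genes, 34 were above background in the retina channel on every array, 11 on none, and 68 on some. By class, 6 of 10 sodium channel alpha subunits, 4 of 8 Kv1 alpha subunits, 4 of 12 calcium- or sodium-activated channel genes and 4 of 12 auxiliary subunits were detected on all arrays, in contrast to 1 of 13 inward rectifiers, 2 of 14 two-pore channels and 1 of 10 silent modulatory subunits. The mean log2 ratio over all mice was above 1 for 19 genes and below -1 for none. A ratio compares retina with the reference for 1 probe and gives no order of abundance between genes.

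The photoreceptor channel gene Kcnv2 was above the reference in every mouse, with a mean log2 ratio of 3.72 over all mice (range 1.69 to 5.76). Scn1a, a sodium channel of ganglion cells, stood at 2.20 and Scn2a, the sodium channel of unmyelinated axons, at 1.73, and both were above 0 on 77 of 77 arrays. Kcnma1, the large-conductance calcium-activated channel, had a mean of 2.99. Some genes known from retina were hardly measurable here: Hcn4 and the silent subunit Kcnv1 were above background on 0 of 77 arrays, and the inward rectifier Kcnj2 on 17. Kcnj13, an inward rectifier of the pigment epithelium, was above background on 57 arrays with a mean log2 ratio of 0.28. Scn8a, Hcn2 and Kcnk4 were above background in the retina and in the reference channel of all 77 arrays, with ratios on both sides of 0.

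**Figure D2:**
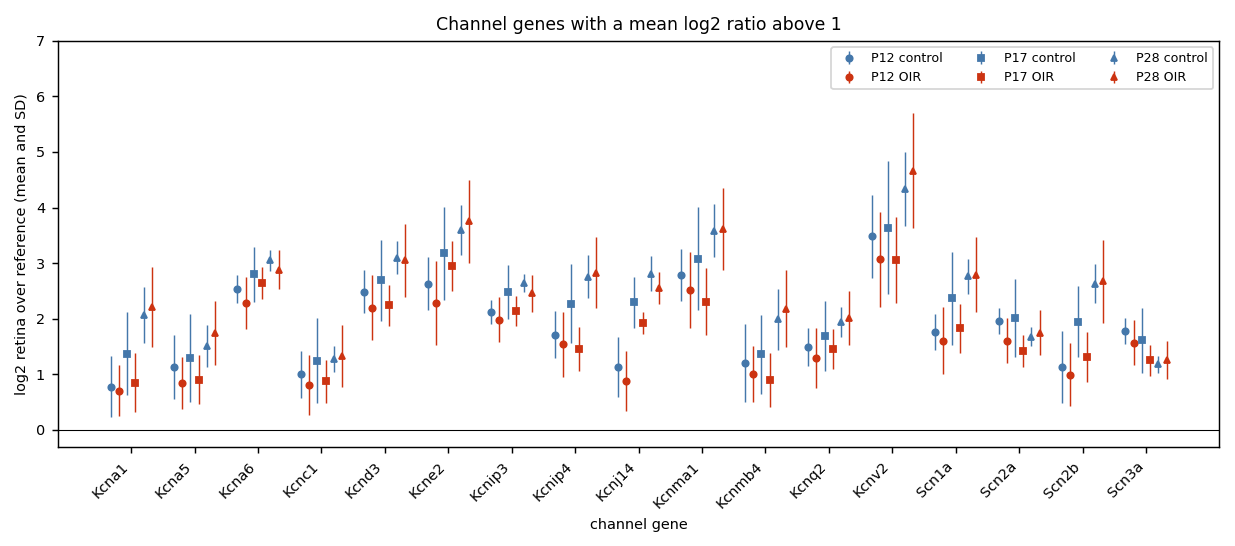
Mean log2 ratio of retina over reference (y axis) with SD for 17 of the 19 channel genes whose mean over all mice exceeds 1 (x axis, alphabetical), in control (blue) and OIR (red) mice of P12 (circles), P17 (squares) and P28 (triangles). The OIR mean of Kcnip4 on P17 is 1.46 against 2.27 in controls.

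The first question was whether channel genes differ between OIR and control retinas on P17, when the retina of OIR mice is hypoxic and new vessels form. No channel gene passed the limma test at an adjusted p of 0.05 in either direction (background, 1.65% of all genes higher and 0.652% lower). The channel genes nevertheless lay on the low side in OIR mice. At an unadjusted p under 0.05, 28 were lower (24.8%, compared with 8.94% of all genes) and 1, Kcnk4, was higher (6.97% of all genes). The median difference was -0.025 for channel genes and -0.0025 for all genes, and 79 differences were below 0 and 34 above. This lean by sign and median was not particular to P17. On P12 the median was -0.022 for channel genes and -0.0018 for all genes, with 85 differences below 0 and 28 above. The split by sign over all genes is not given. The 28 genes lower on P17 are a description drawn from the P17 comparison itself. They comprised 6 of 13 inward rectifiers, 5 of 12 auxiliary subunits, 3 of 4 sodium beta subunits, 3 of 10 sodium alpha subunits, 3 of 8 genes of the Kv10 to Kv12 group and 2 of 4 Kv3 alpha subunits, and none of the 5 Kv7, 10 silent or 4 HCN genes. Without the slides of the last scanning day, 18 were lower and 4 higher at the same unadjusted level, and the share of all genes in that fit is not given.

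**Figure D3:**
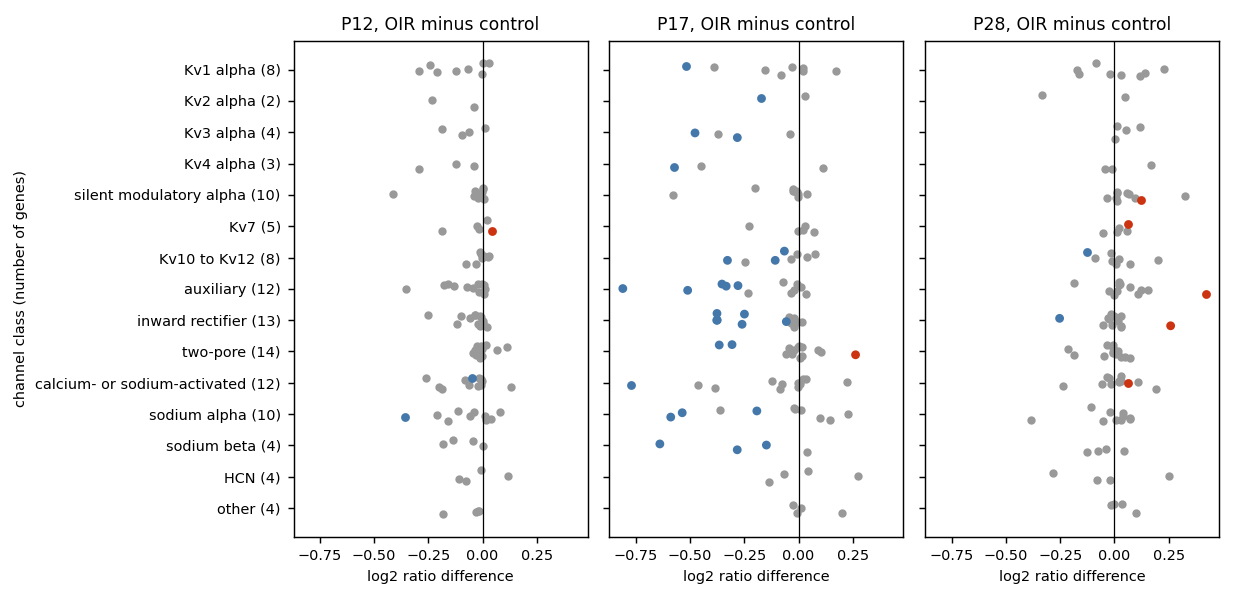
Difference in log2 ratio between OIR and control mice (x axis) for each channel gene, by channel class (y axis, number of genes in parentheses), on P12, P17 and P28. Colored points have an unadjusted p under 0.05 (blue lower, red higher in OIR) and none passed the adjusted threshold; on P17, 28 points are blue and 1 is red.

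The smallest p on P17 belonged to Kcnip4, an auxiliary subunit that binds Kv4 channels. Its log2 ratio ran from 1.07 to 3.31 with a median of 2.07 in control mice, and from 0.96 to 2.35 with a median of 1.37 in OIR mice. The ranges overlapped, but 11 of 13 OIR mice were below the control median. The difference was -0.81 (SE 0.22; limma adjusted p = 0.0774), and with slide as a block it was -0.66 (SE 0.12) and passed the test (adjusted p = 0.00819). Within the 3 scanning days that held both groups (5 OIR and 3 control, 6 and 3, and 2 and 5 mice), it was -0.68, -0.61 and -0.63. A second probe of the gene, above background on 48 arrays, gave -0.15 (adjusted p = 0.32).

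Kcnj9, a G protein-gated inward rectifier, was the other channel gene that passed with slide as a block (2 genes lower and none higher; background, 1.04% lower and 2.06% higher). Control mice ranged from 0.18 to 1.53 with a median of 0.95 and OIR mice from 0.30 to 0.84 with a median of 0.53. The control median exceeded all 13 OIR values, although the lowest control mouse was below every OIR mouse. The difference was -0.38 (SE 0.12, adjusted p = 0.144) and with slide as a block -0.40 (SE 0.084, adjusted p = 0.0222), and within scanning days it was -0.28, -0.42 and -0.39.

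The genes Scn11a, Kcne1l and Kcnd2 are named by the study, which selected them on these samples, so their direction is no independent evidence. Scn11a, a sodium channel known from pain-sensing neurons, ranged from 0.027 to 0.60 in controls (median 0.24) and from -0.021 to 0.19 in OIR mice (median 0.043), and all 13 OIR mice were under the median of controls. It was above background in 10 of 12 control and 2 of 13 OIR mice. The difference was -0.19 (SE 0.052, adjusted p = 0.0809). Kcne1l, also called Kcne5, codes for a small subunit that inhibits Kv7 channels, and its median was 0.45 in controls (0.099 to 1.75) and 0.17 in OIR mice (-0.025 to 0.78). It differed by -0.51 (SE 0.17, adjusted p = 0.18), and a second probe gave -0.015. Kcnd2, a Kv4 pore that carries the transient potassium current, had a median of 0.60 in controls (0.12 to 2.23) and 0.18 in OIR mice (0.11 to 0.90) and differed by -0.58 (SE 0.19, adjusted p = 0.21).

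The size of these differences depended on the ratio used. In the table of log2 ratios deposited by the authors, which has no offset, Scn11a differed by -1.73, Kcne1l by -2.06 and Kcnd2 by -1.94 (adjusted p = 0.0348, 0.0169 and 0.0429), and Kcnc2, Kcnh2 and Kcnab1 passed as well. That table called 6 channel genes lower and none higher (background, 1.89% and 3.25%). Kcnip4 and Kcnj9 were not among them (-0.58, adjusted p = 0.138, and -0.65, adjusted p = 0.35). Over the 12 alternative fits of P17, 22 channel genes passed as lower in at least 1 and none passed as higher in any. Kcnip4 passed in 6, Scn11a in 5, and Kcnh2 and Kcnj9 in 4, whereas most of the others passed in only 1 or 2. The share of all genes that passed in at least 1 of these fits is not given, so the 22 cannot be set against a background.

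The other named genes of P17 had these values. Kcnj5, a partner of Kcnj9 in G protein-gated channels, differed by -0.37 (SE 0.11, adjusted p = 0.122), and 12 of 13 OIR mice were below the control median. The sodium channel Scn2a differed by -0.59 (SE 0.20, adjusted p = 0.231) and the two-pore leak channel Kcnk1 by -0.37 (SE 0.12, adjusted p = 0.17), and for each of them all 13 OIR mice were under the median of controls. Kcnma1 differed by -0.77 with a wide error (SE 0.30, adjusted p = 0.324), Scn1a by -0.54 (SE 0.26) and Kcnv2 by -0.58 (SE 0.39). Scn4b, a sodium beta subunit above background on 45 arrays, differed by -0.28 (SE 0.0925, adjusted p = 0.191), Kcnj13 by -0.26 (adjusted p = 0.29) and Kcnj14 by -0.38 (adjusted p = 0.257). The direction of Kcnj14 was not shared by all settings: it was below 0 in 10 of the 12 alternative fits and at 0.26 (adjusted p = 0.854) in the authors' table. Hcn2 differed by 0.27 (SE 0.28). For Scn8a the difference was 0.23 (95% interval -0.57 to 1.02), an interval that leaves room for a change of either sign.

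**Figure D4:**
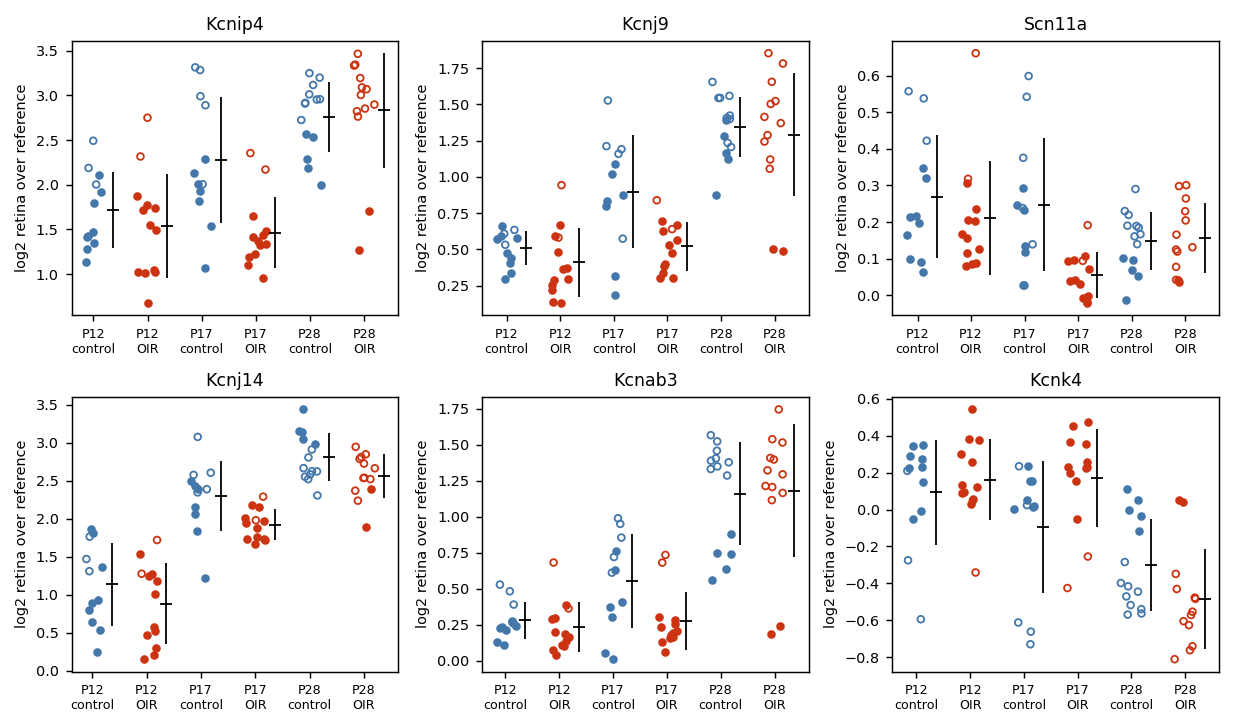
Log2 ratio of retina over reference (y axis) of 6 channel genes in every mouse of the 6 groups (x axis), control in blue and OIR in red, open circles for arrays of the last scanning day, black bars for mean and SD. On P17 the OIR mice of Kcnip4 and Kcnj9 lie mostly below the control median (11 and 13 of 13), Kcnj14 is higher on P17 than on P12 in both groups, and the P28 values of Kcnip4, Kcnab3 and Kcnk4 separate by scanning day.

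The promoters of Kcnip4 and Kcnj9, the pair that passed with slide as a block, and of Kcne1l are shown with the letters searched for. These are the 250 bases before the RefSeq start (GRCm38.p6), 5′ to 3′ on the gene's strand, and Kcnip4 has 2 starts in the table. Capitals mark a hypoxia response core (ACGTG or GCGTG), a photoreceptor homeobox motif (TAATCC), an E-box (CANNTG) or a TATA box (TATAAA), on either strand.
Kcnip4 first promoter, chr5:48599683-48599932, minus strand: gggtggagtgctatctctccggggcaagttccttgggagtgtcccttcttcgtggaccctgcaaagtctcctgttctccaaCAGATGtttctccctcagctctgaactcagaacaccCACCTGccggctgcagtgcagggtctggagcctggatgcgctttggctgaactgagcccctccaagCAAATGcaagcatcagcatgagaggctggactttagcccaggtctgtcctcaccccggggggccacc
Kcnip4 second promoter, chr5:49285660-49285909, minus strand: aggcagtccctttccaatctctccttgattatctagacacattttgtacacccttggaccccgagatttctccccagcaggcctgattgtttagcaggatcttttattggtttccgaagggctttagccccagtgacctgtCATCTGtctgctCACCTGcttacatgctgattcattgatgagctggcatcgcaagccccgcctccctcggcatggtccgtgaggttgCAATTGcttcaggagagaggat
Kcnj9 promoter, chr1:172329323-172329572, minus strand: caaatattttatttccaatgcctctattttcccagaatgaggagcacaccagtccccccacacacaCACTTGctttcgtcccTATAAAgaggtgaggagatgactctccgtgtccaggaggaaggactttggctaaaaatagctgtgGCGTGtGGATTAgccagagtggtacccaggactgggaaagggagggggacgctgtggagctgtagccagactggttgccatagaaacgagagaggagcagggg
Kcne1l promoter, chrX:142306199-142306448, minus strand: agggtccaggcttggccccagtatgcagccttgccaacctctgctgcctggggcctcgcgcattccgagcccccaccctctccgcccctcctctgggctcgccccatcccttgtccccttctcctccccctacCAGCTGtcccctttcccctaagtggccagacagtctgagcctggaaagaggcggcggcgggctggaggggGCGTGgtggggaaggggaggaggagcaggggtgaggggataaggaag
Each Kcnip4 window held 3 E-boxes and neither hypoxia core. Both windows lie inside the gene, whose RefSeq interval on chr5 ends at 49525122, and no window at that end was searched. The Kcnj9 window held 1 GCGTG, 1 TAATCC on the opposite strand, 1 E-box and 1 TATAAA, and that of Kcne1l 1 GCGTG and 1 E-box. Scn11a and Kcnd2, also named by the study and not shown, had neither hypoxia core. The Scn11a window held 1 E-box alone and that of Kcnd2 none of the motifs. Across all 32851 promoters, GCGTG was present in 28.2%, ACGTG in 16.6%, TAATCC in 6.25%, the E-box in 66.2% and TATAAA in 12.4%. For the promoters of the 81 channel genes in the table, these shares were 26.9%, 13.9%, 2.78%, 66.7% and 3.7%. The 30 promoters of 21 of the 28 genes that were lower on P17 held GCGTG in 4, ACGTG in 4 and TAATCC in 1 case.

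On P12, at the end of hyperoxia, no channel gene passed in any fit (background, 0% of genes higher and 0.0567% lower, and 0% and 0.0709% with slide as a block). At an unadjusted p under 0.05, 2 channel genes were lower (1.77%, compared with 1.93% of all genes) and 1 was higher (0.885%, compared with 1.31%). Scn2a was the first of them. Its log2 ratio ran from 1.54 to 2.24 in controls (median 2.04) and from 0.65 to 2.41 in OIR mice (median 1.61), and 12 of 13 OIR mice were below the control median (difference -0.36, SE 0.13, adjusted p = 1). The small-conductance channel Kcnn3 and the Kv7 gene Kcnq5, the next by p, differed by -0.051 and 0.041 and were above background in no mouse of P12.

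On P28 no channel gene passed either (background, 0.137% higher and 0.00473% lower, and 0.373% and 0.0284% with slide as a block), and 5 higher and 2 lower genes had an unadjusted p under 0.05 (4.81% and 3.66% of all genes). Kcne1l, which had the lower values in OIR mice on P17, was on the other side here. Its median was 1.27 in OIR mice (0.11 to 1.94) and 0.90 in controls (0.20 to 1.22), and 11 of 13 OIR mice exceeded the control median (difference 0.42, SE 0.17, adjusted p = 0.633). Without the last scanning day, which leaves 2 OIR mice, the difference on P28 was -0.13, on the same side as on P17. The Kv7 pore Kcnq1 differed by 0.063 (adjusted p = 0.641) and the silent subunit Kcng4 by 0.12 (adjusted p = 0.654). The 11 OIR and 9 control arrays of the last scanning day gave no call by limma. The remaining 2 OIR and 5 control arrays gave 32 lower and 2 higher calls, a count that rests on those 2 OIR mice, which had 16887 and 19028 probes above background compared with 19938 to 20967 in the 5 controls. These 2 OIR mice shared no slide or scanning day with the 5 controls, so oxygen cannot be told apart from slide there. That also holds for the Kcne1l value without the last scanning day. No share of all genes is given for the 32 and 2 calls.

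The OIR effect itself was compared between days. No channel gene passed for P17 against P12, P28 against P17 or P28 against P12 (background of genes higher and lower, 0.964% and 0.0993%, 0.0567% and 0.515%, and 0.0945% and 0%). From P17 to P28 the difference between OIR and control moved upward at an unadjusted p under 0.05 for 24 channel genes (21.2%, compared with 9.95% of all genes) and downward for 6 (5.31%, compared with 7.68%). From P12 to P17, 3 moved downward and none upward at that level (2.84% and 4.06% of all genes). These comparisons use the same P17 mice as the P17 result. With slide as a block, Kcnip4 and Scn2a passed as upward from P17 to P28 and none as downward (background, 0.184% and 0.591%), and Kcnip4 passed as downward from P12 to P17 (background, 0.34% lower and 1.67% higher); for P28 against P12 none passed (0.222% higher and 0.00945% lower). Without the last scanning day, the split from P17 to P28 turned to 6 upward and 25 downward, with no share of all genes given. That fit holds 2 OIR and 5 control mice of P28, which shared no slide or scanning day, so oxygen cannot be told apart from slide there.

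Maturation was followed in control and OIR mice separately. From P12 to P17, a single channel gene rose in each, Kcnj14, an inward rectifier of neurons (background, 1.18% of genes higher and 1.14% lower in control mice, 3.45% and 2.53% in OIR mice). In controls, Kcnj14 ran from 0.24 to 1.86 on P12 (median 1.12) and from 1.22 to 3.08 on P17 (median 2.39). In OIR mice it ran from 0.15 to 1.72 (median 1.01) and from 1.66 to 2.29 (median 1.94). All 12 control and 13 OIR mice of P17 were above the P12 median of their group, and only the lowest P17 mice reached into the range of P12. The rise was 1.16 (SE 0.16, adjusted p = 6.31e-07) in controls and 1.04 (SE 0.16, adjusted p = 9.71e-07) in OIR mice. It did not pass in the authors' table (0.48 and 0.89, adjusted p = 0.824 and 0.167) or with median centring.

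With slide as a block, 14 channel genes rose and none fell in controls from P12 to P17 (background, 2.72% and 2.77%). Beside Kcnj14 they included the sodium beta subunits Scn2b (0.74, adjusted p = 0.00132) and Scn4b (0.27, adjusted p = 0.00874), Scn1a (0.61, adjusted p = 0.000277), Kcnip4 (0.51, adjusted p = 0.00301) and Kcnj9 (0.37, adjusted p = 0.00017). In OIR mice the same fit called 3 higher and 8 lower (background, 5.91% and 6.9%). Kcnj14 (0.97), the auxiliary subunit Kcne2 (0.54) and the sodium-activated Kcnt1 (0.18) rose, whereas Kcne1l (-0.67), Scn3a (-0.40), Scn2a (-0.29) and Scn11a (-0.18) were among those that fell. The difference between OIR and control mice in this step was itself called for Kcnip4 alone.

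From P17 to P28, 19 channel genes rose and 3 fell in controls (background, 11.7% and 7.37%), and 53 rose and 16 fell in OIR mice (background, 28.7% and 22.5%). The OIR arrays moved further to the last scanning day (2 of 13 on P17 and 11 of 13 on P28) than the control arrays (5 of 12 and 9 of 14). Within P28 the values split by scanning day: for Kcnab3 they were 0.19 and 0.24 in the 2 OIR mice read on other days and 1.11 to 1.74 in the 11 read on the last, and in controls 0.56 to 0.88 and 1.29 to 1.57. Its part in the counts was not tested beyond the fits that follow. With slide as a block the counts were 14 and 6 in controls and 27 and 8 in OIR mice (background, 11.8% and 9.19%, and 13.7% and 11.4%), and both fits shared 15 genes in controls (of 22 without and 20 with the block) and 34 in OIR mice (of 69 and 35). On the last scanning day alone, which held 2 OIR mice of P17, 6 rose and 5 fell in controls and 7 rose and 2 fell in OIR mice. Without that day, 9 rose and 0 fell in controls and no gene passed in OIR mice, of which 2 mice of P28 remained. The shares of all genes in these subsets are not given.

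In control mice the largest rises among called genes were these. Kcna1, an axonal Kv1 pore, rose by 0.70 (SE 0.23, adjusted p = 0.0319), Scn2b by 0.69 (SE 0.23, adjusted p = 0.0309), the Kv3 pore Kcnc2 by 0.61 (SE 0.17, adjusted p = 0.00752), the beta subunit Kcnab3 by 0.61 (SE 0.12, adjusted p = 0.000144) and the Kv4 partner Kcnip1 by 0.56 (SE 0.12, adjusted p = 0.000462). For Kcnab3 the control values ran from 0.0091 to 0.99 on P17 (median 0.62) and from 0.56 to 1.57 on P28 (median 1.34), with 13 of 14 P28 mice above the P17 median. Scn3a, the sodium channel prominent before birth, fell by 0.43 (SE 0.14, adjusted p = 0.0272), with 14 of 14 P28 mice below the P17 median. Kcna10 fell by 0.068 and was above background in 1 P17 and 3 P28 control mice. With median centring, which moves the median of all genes by 0.48 in this contrast, Scn3a turned to a higher value.

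In OIR mice, the largest rises were those of Kcnv2 (1.61, SE 0.35), Scn2b (1.37, SE 0.23), Kcnip4 (1.37, SE 0.21), Kcna1 (1.36, SE 0.23) and Kcnma1 (1.30, SE 0.26), and the largest falls those of Scn8a (-1.45, SE 0.36), Hcn2 (-1.12, SE 0.26), Kcna4 (-0.97, SE 0.27), Kcnk4 (-0.66, SE 0.11) and Kcnn4 (-0.63, SE 0.15). Their directions were not shared by all scalings. In the authors' table Kcnv2, Kcnip4 and Kcnma1 were negative (-0.059, -0.45 and -0.99), and of the 53 genes that rose 11 changed sign and 8 were called lower. Without the last scanning day, 29 of the 53 changed sign and none of them passed, and among the genes just named Kcnv2 (-0.27), Kcnma1 (-0.037), Scn8a (0.14) and Kcnn4 (0.25) turned. That table called 41 channel genes higher and 29 lower (background, 29.5% and 22.5%). With median centring, which moves the median of all genes by 0.66, 12 of the 16 that fell changed sign, among them Scn8a, Hcn2, Kcna4 and Kcnk4. A second probe of Scn8a gave 0.094 (adjusted p = 0.00578) and one of Kcnk4 gave 0.055 (adjusted p = 0.049), both above background on 22 arrays or fewer.

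Genes called in one direction in OIR mice as reported, with slide as a block, in the authors' table and in the retina channel alone numbered 13 higher and 5 lower. The share of all genes that passed this filter is not given. In the fit as reported, 28.7% of all genes were higher and 22.5% lower. The 13 were the alpha subunits Kcna2, Kcnc2, Kcnd2, Kcng4, Kcnh2 and Kcnn2, the inward rectifier Kcnj5, and the auxiliary subunits Kcnab1, Kcnab3, Kcne1l, Kcnip1, Kcnmb4 and Scn4b. The 5 included Hcn2, Kcnh4, Kcnk4 and Scn4a. The filter leaves out the fit without the last scanning day, in which none of these genes was called. It also leaves out median centring. That setting turned the sign of 12 of the 16 genes that fell in OIR mice, Hcn2 and Kcnk4 among them. It also turned 3 of the 53 that rose. In control mice the same filter left Kcna2, Kcnc2, Kcnip1, Kcnip2 and Scn4b as higher and Scn3a as lower. Of these, Kcnip2 was above background on 23 of 77 arrays, Scn4b on 45, Kcna2 on 46, Kcnip1 on 55 and Kcnc2 on 64. Scn3a was above background on all 77. Kcnc2 had a median of 0.21 in OIR mice of P17 (0.084 to 1.03) and 1.59 on P28 (0.32 to 2.14), and all 13 P28 mice were above the P17 median (1.20, SE 0.16, adjusted p = 2.39e-08). Kcnd2 moved from a median of 0.18 (0.11 to 0.90) to 1.25 (0.20 to 1.74), by 0.87 (SE 0.18, adjusted p = 5.38e-05). For both, the 2 P28 mice read on other scanning days were the lowest of their group (Kcnc2 0.32 and 0.38, Kcnd2 0.20 and 0.29).

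A list of 40 other genes of ion handling (calcium channel, cyclic nucleotide-gated channel, pump and exchanger genes, with Kcnj8 and Kcnj10) gives the setting on P17. There 1 rose and 3 fell in OIR mice, and the median difference was -0.16 with 30 of 40 below 0. Cacna2d3, an auxiliary subunit of calcium channels, fell by 0.65 (SE 0.12, adjusted p = 0.0029). Atp1b1 and Atp1b3, beta subunits of the sodium pump, fell by 0.51 (adjusted p = 0.0276) and 0.33 (adjusted p = 0.0263), and the calcium channel Cacna1s rose by 0.34 (adjusted p = 0.00128). All 4 also passed with slide as a block.

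Markers of retinal cell types moved on P17 as well, and their part in the channel values was not tested. The median difference was -0.42 for 6 bipolar, -0.36 for 6 amacrine, -0.32 for 8 ganglion cell and -0.34 for 6 Mueller glia markers, compared with 0.072 for 8 rod and 0.012 for 7 cone markers. Of these, Slc6a9 among the amacrine and Nefl among the ganglion cell markers passed as lower (-0.36, adjusted p = 0.0312, and -0.77, adjusted p = 0.0478). With slide as a block Slc6a9 no longer passed (adjusted p = 0.0571), Nefl did (adjusted p = 0.00423), and 5 more markers passed as lower. These were Prkca and Gng13 of bipolar cells (-0.38, adjusted p = 0.0369, and -0.52, adjusted p = 0.0023), Gad1 of amacrine cells (-0.69, adjusted p = 0.0305), and Rlbp1 and Glul of Mueller glia (-0.60, adjusted p = 0.0233, and -0.51, adjusted p = 0.0304). Per mouse, the mean log2 ratio of the ganglion cell list ran from 1.17 to 2.15 in control and from 1.19 to 1.55 in OIR mice, and that of the amacrine list from 1.60 to 3.12 and from 1.73 to 2.50. In contrast, 4 of 5 reactive glia, 3 of 8 mural and 2 of 7 microglia markers rose (medians 0.86, 0.47 and 0.15). With slide as a block these counts were 4, 5 and 2, the mural markers Pdgfrb (adjusted p = 0.0451) and Acta2 (adjusted p = 0.00799) being the added ones, and Cdh5, 1 of 8 endothelial markers, passed as higher (0.42, adjusted p = 0.0209). The mean log2 ratio of the reactive glia list per mouse ran from -1.61 to -0.83 in control and from -0.80 to -0.0275 in OIR mice, and the groups did not overlap. Rpe65 of the pigment epithelium fell by 0.81 (adjusted p = 0.0321, and 0.0788 with slide as a block) and Bfsp2 of the lens by 0.31 (adjusted p = 0.0159).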

How the data were processed

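Two-color arrays of retina RNA from 77 mice were used, and 113 of 21154 genes were described. Per the file headers, the authors extracted spot intensity values with Agilent Feature Extraction 10.7.3.1, and the deposited table of log2 ratios equals Cy3 over Cy5 of the processed signals within 0.001 for at least 99.7% of probes per array, with column medians from -0.127 to 0.00993 and no centering found. Median signals were corrected with normexp (offset 50), normalized by loess within arrays and averaged per probe, without outlier spots (0.29 to 0.582%). Probes were named by RefSeq accession (28026 of 55681). OIR and control mice were compared per day, and days and changes of the OIR effect in 1 fit over 6 groups, with limma 3.58.1 in R 4.3.3, without a brightness filter and with Benjamini-Hochberg adjustment over 55681 probes at 0.05. The median residual SD was 0.145 to 0.158, and the number of mice limits the precision. The members, lists and named genes were chosen with earlier results of these data known. Named were all called genes of the OIR comparisons, otherwise 3 by p per day, 5 rises and 5 falls per day contrast, genes named by the study and 15 retinal channel genes. Some of these genes are not reported here. Calls were recomputed with other background, scaling, filter, slide, weight, probe and fit settings. The fit was tested on simulated data with independent noise and no slide or scanning-day effect, so that test does not cover those effects. Array pairs correlated at 0.605 to 0.988, so none was a duplicate.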

Additional observations from a re-analysis of the deposited data

Results flagged for a closer look

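With slide as a block, the OIR effect of 2 channel genes differed between days by a test of the difference itself. For Kcnip4 the difference between OIR and control mice was lower on P17 than on P12 by a log2 value of -0.68 (limma adjusted p = 0.0114) and higher on P28 than on P17 by 0.67 (adjusted p = 0.0427). For Scn2a it was higher on P28 than on P17 by 0.69 (adjusted p = 0.00713). Without the block the same values were -0.63 (adjusted p = 0.988), 0.88 (adjusted p = 0.215) and 0.66 (adjusted p = 0.215), and none passed. In the authors' table they were -0.36 (adjusted p = 0.914), 0.062 (adjusted p = 0.964) and 0.33 (adjusted p = 0.765), and in the retina channel alone -0.68 (adjusted p = 7.47e-07), 0.68 (adjusted p = 1.64e-06) and 0.34 (adjusted p = 0.291). Both contrasts of Kcnip4 share the P17 mice, and the weight of P28 lies on slides of the last scanning day.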

How the results depend on the processing

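Channel genes called are counted here in both directions. Shares of all genes are not set beside these counts, which show dependence on processing and no result about channel genes. Median centring moved the median of all genes by 0.483 from P17 to P28 in control mice, and that of channel genes by 0.2795. On P12 no setting gave a call by limma. For OIR against control on P17 (0 as reported), 6 passed in the authors' table, 18 in the retina channel alone, 1 with a filter on dim probes, 2 with slide as a block, 9 with array weights, 3 in one fit over all groups, 8 in the authors' table with the block and 4 with filter and block; all were lower. For P28 (0), 34 passed without the last scanning day, where OIR and control mice shared no slide. For P17 against P12 in control mice (1), the counts were 5 in the authors' table, 0 with median centring, 16 in the retina channel, 4 with the filter, 14 with the block, 5 with weights, 2 without the last scanning day, 9 in the authors' table with the block and 15 with filter and block; in OIR mice (1) they were 5, 0, 16, 3, 11, 9, 5, 8 and 12 in the same order, and 2 over all probes of a gene. For P28 against P17 in control mice (22), 91 passed with median centring, 58 with weights, 9 without the last scanning day and 11 on that day alone; in OIR mice (69), 35 passed with the block, 0 without the last scanning day, 9 on that day alone, 13 in the authors' table with the block and 37 with filter and block. For the change of the OIR effect from P12 to P17 (0), 4 passed in the retina channel and 1 each with the block, in the authors' table with it and with filter and block; from P17 to P28 (0), 1 in the authors' table, 4 in the retina channel, 1 with the filter, 2 with the block, 4 with weights, 1 in the authors' table with the block and 2 with filter and block; from P12 to P28 (0), 1 without the last scanning day.

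Genes named by p or by size of change turned sign as follows, and the cause was not tested. Without the last scanning day, Kcne1l was at -0.13 and Kcng4 at -0.0084 on P28, and from P17 to P28 in OIR mice Kcnv2 was at -0.27, Kcnma1 at -0.037, Scn8a at 0.14 and Kcnn4 at 0.25; on that day alone Hcn2 was at 0.20. With median centring, Scn3a was at 0.35 in controls, and Scn8a at 0.23, Hcn2 at 1.05, Kcna4 at 0.78 and Kcnk4 at 0.62 in OIR mice. In the authors' table, Kcna10 was at 0.034 in controls, and Kcnv2 was at -0.059, Kcnip4 at -0.45 and Kcnma1 at -0.99 in OIR mice; with the block added Kcna10 was at 8e-04, Kcnv2 at -0.14 and Kcnma1 at -0.0998. Of the other values of named genes, 247 kept direction and side of the threshold, 52 lost the call and 19 gained one. The settings by scanning day and the joint settings were chosen after seeing the data. No paired analysis was possible because every mouse has its own number. Signal over background limits the dim genes: 11 were above it on no array.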

Other observations

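Among the 39 channel genes with several probes, the probes often differed in size. On P17 the 4 probes of Kcnma1 gave differences between OIR and control mice of -0.77, -0.59, -0.25 and -0.22, and the 3 probes of Scn2a -0.59, -0.42 and -0.065. The brighter probe gave the larger difference for Kcnip4 (-0.81 and -0.15), Kcne1l (-0.51 and -0.015) and Kcnj14 (-0.38 and -0.12).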
